A study of Rattus norvegicus with 10 samples.

Results

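The genes described here are those of the interferon response and of antigen presentation, 84 of the 14354 genes of the deposited table. They were chosen by name: 40 of a list of 44 interferon and antigen presentation genes, and the 44 genes whose name starts with RT1-, the prefix of the rat major histocompatibility complex. Xaf1, Ifnar2, Ifi44l and Nlrc5 are on the list and were not analysed here. RNA was sequenced from 5 TTX and 5 vehicle libraries of primary hippocampal cultures, prepared from Sprague-Dawley rats at embryonic day 18 and kept in neurobasal medium with 2% B27 and 0.5 mM glutamine. The TTX group received 1 µM tetrodotoxin, which blocks voltage-gated sodium channels and so stops action potentials, at day 19 in vitro, and was collected 24 h later at day 20. The vehicle group was treated for the same time without the toxin. Nothing in the labels says that libraries of a group came from separate cultures or animals, so p-values measure the spread between these libraries, which may be technical.

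Interferons bind receptors that signal through Janus kinases to STAT proteins, and complexes of STAT proteins, some of them with IRF9, then switch on a broad set of antiviral genes. Interferon also raises the machinery of class I presentation, in which proteasome peptides are carried into the endoplasmic reticulum by the TAP transporter and loaded on class I chains paired with beta-2 microglobulin. In the healthy brain this system is kept low, and neuronal class I molecules have been tied to synapse development and plasticity. Class II molecules are a feature of professional antigen presenting cells, which in brain tissue are mainly microglia and macrophages.

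Libraries held 58785925 to 84921962 counts in the TTX group and 52254261 to 77757538 in the vehicle group. All 6 of a list of activity-induced genes were lower with TTX, and markers of neurons, astrocytes and the oligodendrocyte lineage were present in both groups. Levels are given as CPM, counts scaled to the size of the library, and lists of 5 values follow replicates 1 to 5. A gene is called higher or lower where edgeR's quasi-likelihood test gave a Benjamini-Hochberg adjusted p under 0.05 over the 13088 genes tested. At this depth 70.5% of all tested genes were called, 35.4% higher and 35.0% lower with TTX, so a call alone says little about size. Differences are log2 fold changes of TTX over vehicle, given with their SE after the ± sign, and mean levels are given with their SD over the 5 libraries of a group.

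With TTX, 22 of 33 tested interferon response genes of the list were called higher and 22 of 32 tested class I genes of the RT1 complex were called lower. Of the 84 members 78 passed the filter on low counts and were tested, and 25 were called higher, 31 lower and 22 did not pass the test. The 56 called of 78 are close to the share over all genes tested, 70.5% (35.4% higher and 35.0% lower). The 6 that were not tested were Ifit3, RT1-Db2, RT1-DOa, RT1-M1-4, RT1-M4 and RT1-T24-2. The 33 interferon response genes are the members outside the class I assembly genes and the RT1 genes, and 4 of them were lower, with a median log2 fold change of 0.43 over the 33. By role the share differed, with 8 of 16 antiviral effectors higher. Of 29 tested effector genes that are not on the list, 11 were higher and 6 lower, with a median of 0.12. Of the 32 RT1 class I genes 2 were higher, and their median was -0.65. The median over all genes tested was 0.01. The groups did not overlap in any library for 20 of the 78 tested members that were higher and 24 that were lower. These shares are close to the 28.2% and 29.1% of all genes (57.3% in either direction). A low gene can pass the filter through the group in which it is high, so these counts describe the members and are no test of them.

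Promoter windows of 9 members are shown because they hold or lack a match to searched motifs of interferon-activated factors, in genes that moved in either direction. They were taken from RefSeq (assembly GRCr8, 250 bases before to 50 after the start of the gene) and are printed 5′ to 3′ along the strand of the gene, with motif letters in capitals. The motifs searched were GAAA and GAAA with any 2 bases between them, the core of the interferon-stimulated response element, and TTC and GAA with any 3 bases between them, the core of the gamma-activated site. Both strands were searched, so the first may also read TTTC and TTTC with any 2 bases between. Gbp2 lies at chr2:234005477-234005776 (+), Oasl2 at chr12:47383136-47383435 (-), Parp14 at chr11:78407884-78408183 (+) and Irf1 at chr10:38417685-38417984 (+), and all 4 were higher with TTX. Ifitm3 lies at chr1:205541709-205542008 (-), Irf7 at chr1:205799974-205800273 (-), Tap1 at chr20:4668494-4668793 (-), Tapbp at chr20:4967828-4968127 (-) and RT1-A2 at chr20:4872621-4872920 (+), and all 5 were lower.
Gbp2: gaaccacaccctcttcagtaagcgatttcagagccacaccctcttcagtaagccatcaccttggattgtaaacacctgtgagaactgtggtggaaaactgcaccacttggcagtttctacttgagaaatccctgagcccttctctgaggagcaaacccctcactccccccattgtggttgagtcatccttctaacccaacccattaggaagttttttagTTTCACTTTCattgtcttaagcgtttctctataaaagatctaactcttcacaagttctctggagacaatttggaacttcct
Oasl2: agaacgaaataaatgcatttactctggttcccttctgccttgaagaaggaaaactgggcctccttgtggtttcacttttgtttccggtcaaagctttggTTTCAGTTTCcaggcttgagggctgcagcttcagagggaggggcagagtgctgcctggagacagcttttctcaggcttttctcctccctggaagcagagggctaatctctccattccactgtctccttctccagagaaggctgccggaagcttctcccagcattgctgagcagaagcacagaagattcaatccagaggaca
Parp14: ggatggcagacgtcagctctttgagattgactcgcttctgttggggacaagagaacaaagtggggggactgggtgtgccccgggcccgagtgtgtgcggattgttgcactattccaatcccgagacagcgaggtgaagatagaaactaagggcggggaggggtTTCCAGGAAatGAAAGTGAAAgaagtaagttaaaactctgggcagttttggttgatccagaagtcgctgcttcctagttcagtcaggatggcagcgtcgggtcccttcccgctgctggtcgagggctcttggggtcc
Irf1: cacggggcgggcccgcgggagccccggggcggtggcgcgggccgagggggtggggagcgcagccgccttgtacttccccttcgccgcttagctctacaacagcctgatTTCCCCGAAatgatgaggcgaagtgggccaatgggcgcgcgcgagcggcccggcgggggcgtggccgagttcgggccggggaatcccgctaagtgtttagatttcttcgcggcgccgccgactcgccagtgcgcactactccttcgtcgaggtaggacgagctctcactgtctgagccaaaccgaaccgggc
Ifitm3: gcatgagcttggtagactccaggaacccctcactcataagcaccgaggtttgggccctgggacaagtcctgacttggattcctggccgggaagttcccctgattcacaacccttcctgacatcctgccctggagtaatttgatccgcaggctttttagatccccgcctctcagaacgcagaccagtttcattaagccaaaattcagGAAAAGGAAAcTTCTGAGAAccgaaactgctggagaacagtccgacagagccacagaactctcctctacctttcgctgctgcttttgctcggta
Irf7: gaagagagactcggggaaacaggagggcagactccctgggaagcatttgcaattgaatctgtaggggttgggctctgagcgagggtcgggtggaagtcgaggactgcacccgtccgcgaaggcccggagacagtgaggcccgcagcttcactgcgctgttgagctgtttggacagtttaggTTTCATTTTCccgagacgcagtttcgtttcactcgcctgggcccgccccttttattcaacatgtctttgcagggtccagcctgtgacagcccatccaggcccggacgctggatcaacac
Tap1: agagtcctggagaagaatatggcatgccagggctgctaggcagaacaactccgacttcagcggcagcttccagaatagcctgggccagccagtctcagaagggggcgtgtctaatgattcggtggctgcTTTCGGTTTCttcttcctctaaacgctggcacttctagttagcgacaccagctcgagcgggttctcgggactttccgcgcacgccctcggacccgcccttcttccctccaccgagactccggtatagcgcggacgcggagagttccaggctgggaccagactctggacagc
Tapbp: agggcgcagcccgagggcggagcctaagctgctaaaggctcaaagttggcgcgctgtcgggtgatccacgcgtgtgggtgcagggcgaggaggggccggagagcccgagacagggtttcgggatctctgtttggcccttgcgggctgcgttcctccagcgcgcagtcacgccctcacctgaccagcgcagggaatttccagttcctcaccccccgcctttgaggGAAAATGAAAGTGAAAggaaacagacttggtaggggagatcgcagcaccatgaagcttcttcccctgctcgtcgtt
RT1-A2: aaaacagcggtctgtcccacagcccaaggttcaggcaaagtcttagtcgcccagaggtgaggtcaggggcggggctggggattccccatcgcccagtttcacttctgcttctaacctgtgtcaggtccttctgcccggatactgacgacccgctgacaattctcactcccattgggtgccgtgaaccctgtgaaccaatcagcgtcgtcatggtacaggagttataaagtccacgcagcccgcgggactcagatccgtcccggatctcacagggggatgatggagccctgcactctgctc
Gbp2, Oasl2, Irf7 and Tap1 each hold 1 match to the response element core. In Tapbp 2 matches overlap. Irf1 holds only the gamma-activated core, Parp14 and Ifitm3 hold both motifs, and neither set of letters is in the RT1-A2 window. Windows were found for 71 members. The response element core was in 22 of the 34 windows of the listed genes and in 3.77% of all 27457 windows of this length, and the gamma-activated core was in 7 of 34 and in 8.68%. By call, the response element core was in 9 of 17 windows of listed genes that were higher, in 6 of 7 that were lower and in 6 of 9 that did not pass. Of 37 RT1 windows 3 held it, and a match is a description of letters, not of a bound site. Only these exact letters were searched, so a window without a match, such as that of RT1-A2, may still hold a similar sequence.

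Both interferon receptor chains of the list that were tested, Ifngr1 and Ifnar1, were higher with TTX. Ifngr1, the ligand-binding chain of the interferon gamma receptor, measured 34.4, 34.6, 37.2, 37.0 and 35.8 CPM in TTX libraries, against 26.0, 29.1, 28.5, 27.7 and 26.3 CPM in vehicle libraries. Its groups did not overlap (0.38 ± 0.0419, adjusted p = 1.38e-06, edgeR). Ifnar1, a chain of the type I interferon receptor, measured 178, 178, 177, 171 and 173 CPM in TTX libraries, against 163, 166, 170.0, 173 and 161 CPM in vehicle libraries. The highest vehicle library stood above the lowest TTX library, and the difference was small though called (0.08 ± 0.0256, adjusted p = 0.0148).

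Transcription factors of the pathway divided. Irf1, a factor induced by interferon gamma, measured 18.1, 17.3, 18.9, 20.0 and 18.1 CPM in TTX libraries, against 13.7, 12.2, 12.3, 11.4 and 13.1 CPM in vehicle libraries. Irf9, the DNA-binding part of the complex it forms with STAT proteins, measured 18.4, 18.1, 16.8, 19.7 and 18.4 CPM in TTX libraries, against 12, 12.1, 13.1, 13.1 and 13.8 CPM in vehicle libraries. Every TTX library exceeded every vehicle library for both genes (0.56 ± 0.0572, adjusted p = 6.28e-07 for Irf1; 0.51 ± 0.0551, adjusted p = 1.04e-06 for Irf9; edgeR). Stat2, the partner of Irf9, was 1.11-fold higher (0.15 ± 0.0387, adjusted p = 0.00297). Irf3, the factor that viral RNA sensors activate to start interferon production, was lower, with 23.7, 20.6, 22.0, 21.6 and 20.6 CPM in TTX libraries, against 25.5, 29.3, 27.8, 27.4 and 25.9 CPM in vehicle libraries. Irf7, which amplifies type I interferon production, was also lower, with 5.01, 7.15, 5.22, 5.10 and 6.90 CPM in TTX libraries, against 7.83, 7.81, 7.63, 8.49 and 7.71 CPM in vehicle libraries. The groups were apart for both (-0.32 ± 0.0501, adjusted p = 4.15e-05 for Irf3; -0.43 ± 0.105, adjusted p = 0.00217 for Irf7). In TTX replicates 2 and 5 Irf7 lay nearer to the vehicle libraries than in the other TTX libraries.

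**Figure D1:**
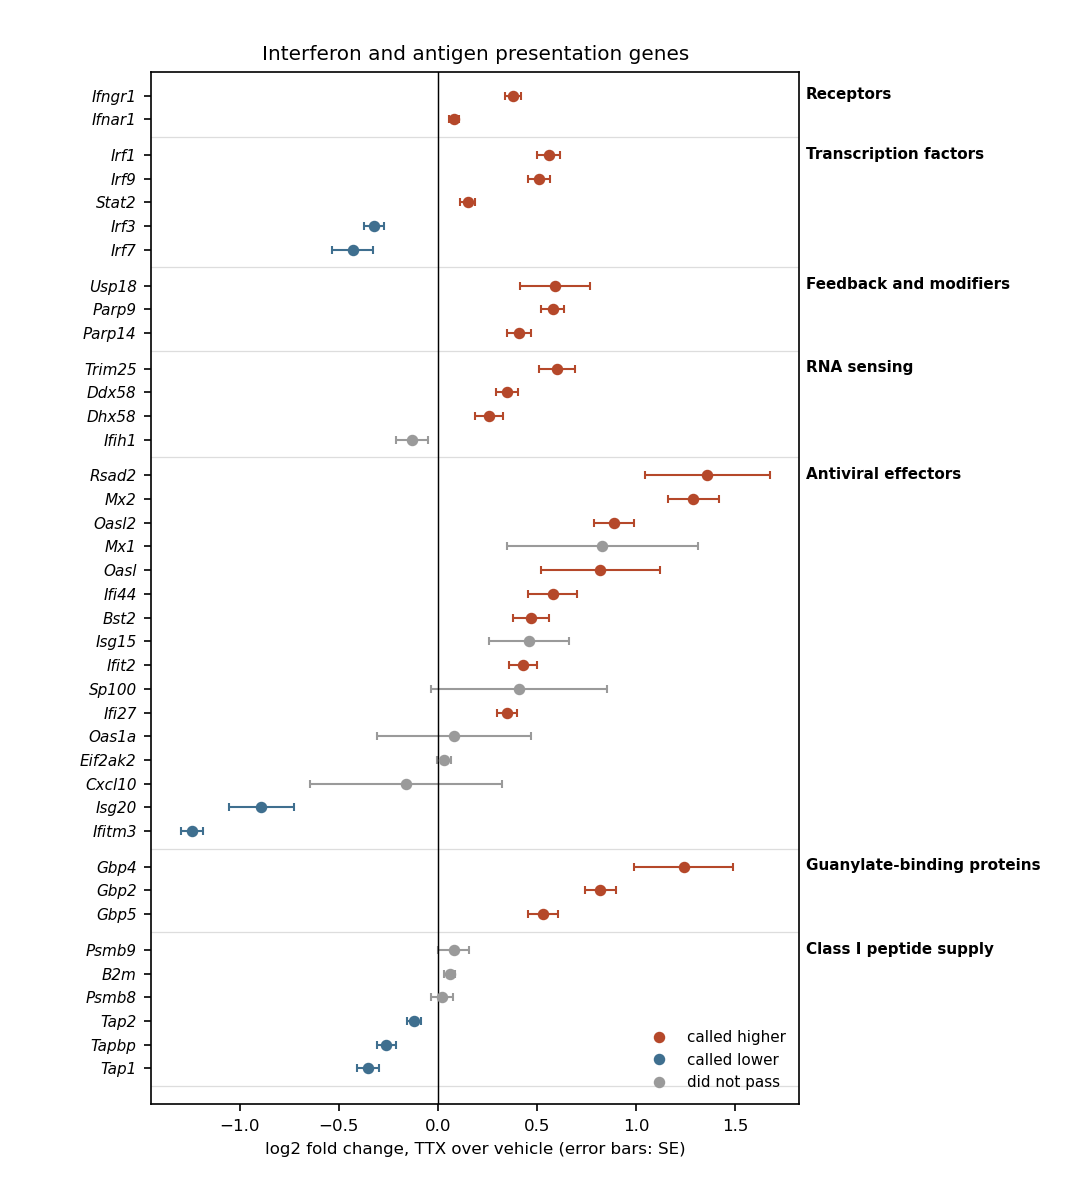
Log2 fold change of TTX over vehicle (x axis) for the 39 tested genes of the list, grouped by role, with bars for the SE. Genes called higher lie right of 0 up to 1.36 for Rsad2, genes called lower lie left of it down to -1.24 for Ifitm3, and none of the 6 class I supply genes was called higher.

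Feedback and modifier genes were all higher. Parp9 and Parp14 are ADP-ribosyltransferases that act in interferon signalling. Parp9 measured 20.0, 21.3, 17.6, 20.8 and 22.2 CPM in TTX libraries, against 13.7, 13.9, 13.9, 13.2 and 13.5 CPM in vehicle libraries. Parp14 measured 12.6, 13.9, 14.2, 13.5 and 13.5 CPM in TTX libraries, against 9.40, 11.4, 9.42, 10.3 and 10.5 CPM in vehicle libraries. Both were apart between the groups (0.58 ± 0.0580, adjusted p = 5.2e-07 for Parp9; 0.41 ± 0.0627, adjusted p = 3.88e-05 for Parp14; edgeR). Usp18, a protease that removes ISG15 from proteins and damps the type I receptor, measured 1.45, 2.60, 1.88, 1.58 and 1.99 CPM in TTX libraries, against 1.11, 1.41, 1.04, 1.49 and 1.24 CPM in vehicle libraries. Its lowest TTX library was below its highest vehicle library, and it was called higher (0.59 ± 0.176, adjusted p = 0.00818).

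Among the cytosolic RNA sensing genes 3 of 4 were higher, against 35.4% of all genes tested. Trim25, the ubiquitin ligase that activates RIG-I, measured 8.84, 11.5, 11.7, 9.44 and 11.0 CPM in TTX libraries, against 7.77, 7.27, 6.21, 7.00 and 6.53 CPM in vehicle libraries. Ddx58, which encodes RIG-I itself, measured 19.0, 22.1, 18.9, 20.7 and 19.7 CPM in TTX libraries, against 16.1, 16.1, 16.1, 14.3 and 16.1 CPM in vehicle libraries. These groups were apart (0.60 ± 0.0913, adjusted p = 3.91e-05 for Trim25; 0.35 ± 0.0544, adjusted p = 4.37e-05 for Ddx58; edgeR). Dhx58, which encodes the regulator LGP2, measured 14.6, 14.9, 13.2, 13.4 and 14.9 CPM in TTX libraries, against 11.0, 13.7, 10.9, 11.1 and 12.6 CPM in vehicle libraries, and its groups overlapped (0.26 ± 0.0705, adjusted p = 0.00463). Ifih1, which encodes the sensor MDA5 for long double-stranded RNA, measured 7.49, 7.07, 7.40, 7.40 and 7.14 CPM in TTX libraries, against 7.64, 9.02, 8.89, 7.43 and 6.95 CPM in vehicle libraries. It did not pass (-0.13 ± 0.0791, adjusted p = 0.159), and its vehicle libraries 2 and 3 lay above all others.

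The antiviral effectors ranged from -1.24 to 1.36 in log2 fold change. Of 16 tested, 8 were higher, 2 lower and 6 did not pass, against 35.4% higher and 35.0% lower of all genes. Mx2, a dynamin-like GTPase that blocks viruses, measured 20.9, 28.4, 19.8, 25.0 and 24.8 CPM in TTX libraries, against 8.35, 11.1, 7.35, 9.79 and 12 CPM in vehicle libraries. Oasl2, a relative of the oligoadenylate synthetases, measured 4.32, 5.73, 4.94, 5.62 and 5.30 CPM in TTX libraries, against 2.91, 3.06, 2.45, 2.90 and 2.70 CPM in vehicle libraries. Ifi27, an interferon-induced membrane protein, measured 59.4, 68.4, 60.6, 66.7 and 68.1 CPM in TTX libraries, against 47.9, 52.1, 49.7, 48.9 and 55.2 CPM in vehicle libraries. For each of the 3 the lowest TTX library was above the highest vehicle library. The fold was 2.44 for Mx2 (1.29 ± 0.127, adjusted p = 4.13e-07), 1.85 for Oasl2 (0.89 ± 0.102, adjusted p = 2.21e-06) and 1.27 for Ifi27 (0.35 ± 0.0497, adjusted p = 1.98e-05). By FPKM, which is scaled to gene length and was given for 81 of the members, Ifi27 was the third most abundant member with 79.2 ± 5.18 in TTX libraries and 61.6 ± 3.23 in vehicle libraries (SD, n = 5 libraries each).

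The other effectors called higher ranged from 0.43 to 1.36 on the log2 scale. Rsad2, which encodes the antiviral enzyme viperin, averaged 2.17 ± 0.844 CPM in TTX libraries and 0.827 ± 0.411 CPM in vehicle libraries (1.36 ± 0.315, adjusted p = 0.00138). Ifi44 averaged 6.07 ± 0.855 CPM in TTX libraries and 4.04 ± 0.666 CPM in vehicle libraries (0.58 ± 0.124, adjusted p = 0.000733). Bst2, which encodes tetherin, a protein that holds budding virions at the membrane, averaged 7.69 ± 0.880 CPM in TTX libraries and 5.53 ± 0.400 CPM in vehicle libraries (0.47 ± 0.0895, adjusted p = 0.000264). Ifit2, which inhibits translation of viral RNA, averaged 14.1 ± 0.599 CPM in TTX libraries and 10.5 ± 1.09 CPM in vehicle libraries (0.43 ± 0.0687, adjusted p = 6.15e-05). Groups were apart for Ifi44, Bst2 and Ifit2 and overlapped for Rsad2. Oasl, another relative of the synthetases, averaged 0.523 ± 0.181 CPM in TTX libraries and 0.295 ± 0.0760 CPM in vehicle libraries (0.82 ± 0.300, adjusted p = 0.0246), and its call was lost without TTX replicate 4 (adjusted p = 0.0558), TTX replicate 5 (0.0766), vehicle replicate 2 (0.0517) or vehicle replicate 5 (0.0643). Isg15, the ubiquitin-like modifier, averaged 2.85 ± 0.951 CPM in TTX libraries and 2.06 ± 0.166 CPM in vehicle libraries and did not pass (0.46 ± 0.203, adjusted p = 0.0544). Without TTX replicate 3 its log2 fold change was 0.62 and it was called (adjusted p = 0.00269). Eif2ak2, which encodes the RNA-activated kinase PKR, averaged 48.8 ± 2.09 CPM in TTX libraries and 47.7 ± 1.33 CPM in vehicle libraries (0.03 ± 0.0362, adjusted p = 0.436). Oas1a, Sp100 and the chemokine gene Cxcl10 each averaged under 1 CPM in both groups and did not pass, with adjusted p of 0.863, 0.427 and 0.776.

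Ifitm3 had the smallest p of all named effectors and was lower with TTX. It encodes a membrane protein that stops enveloped viruses from fusing in endosomes. It measured 63.3, 75.0, 81.9, 78.9 and 69.5 CPM in TTX libraries, against 178, 168, 178, 179 and 164 CPM in vehicle libraries. The highest TTX library was at 81.9 CPM and the lowest vehicle library at 164 CPM, and the level was 2.35-fold lower (-1.24 ± 0.0576, adjusted p = 1.13e-10, edgeR). It was the second most abundant member by FPKM, with 119.8 ± 12.5 in TTX libraries and 279 ± 12.5 in vehicle libraries (SD, n = 5 libraries each). Its relative Ifitm1, which was not on the list, averaged 1.34 ± 0.242 CPM in TTX libraries and 4.16 ± 0.875 CPM in vehicle libraries (-1.64 ± 0.169, adjusted p = 6.75e-07), and Ifitm2 did not pass (-0.14 ± 0.116, adjusted p = 0.301). Isg20, an exonuclease that degrades RNA, was the other lower effector, with 1.48, 1.68, 1.57, 1.23 and 1.73 CPM in TTX libraries, against 2.28, 2.34, 3.98, 2.90 and 2.70 CPM in vehicle libraries. Its groups were apart (-0.89 ± 0.165, adjusted p = 0.00023), and vehicle replicate 3 stood above the rest.

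**Figure D2:**
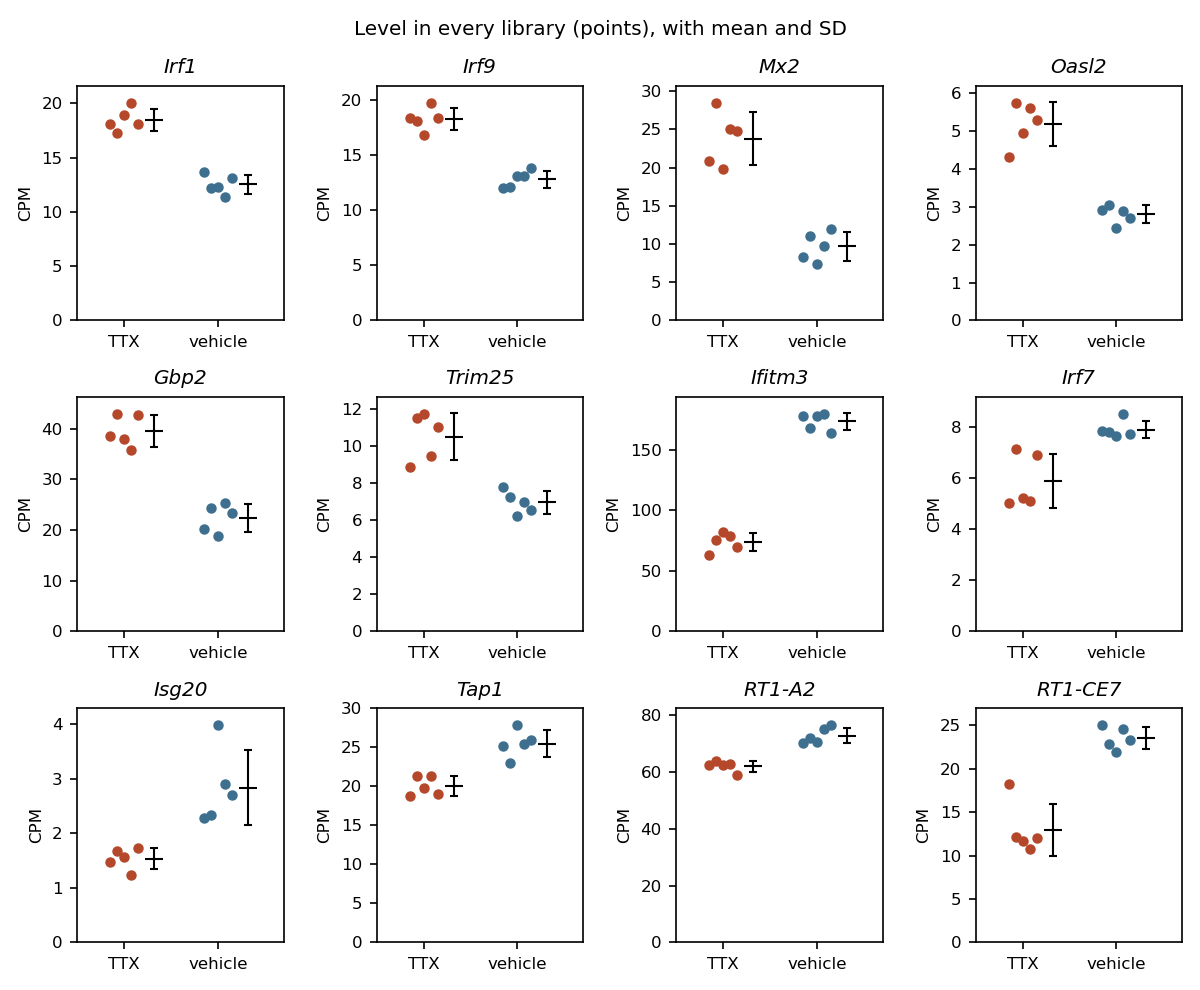
CPM (y axis, from 0) of 12 members in each of 5 TTX and 5 vehicle libraries (points), with mean and SD beside them. Mx2 lies at 19.8 to 28.4 with TTX and 7.35 to 12 with vehicle, and Ifitm3 at 63.3 to 81.9 with TTX and 164 to 179 with vehicle, and the groups are apart in all 12 panels.

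Mx1 did not pass the test, and 2 libraries stood apart from their groups. Mx1, the paralog of Mx2, measured 94.9, 96.3, 81.7, 13.4 and 98.9 CPM in TTX libraries, against 47.4, 53.8, 7.13, 52.7 and 56.2 CPM in vehicle libraries. TTX replicate 4 and vehicle replicate 3 lay far below the other libraries of their groups, whereas Mx2 lay within the range of the TTX group in the first, at 25.0 CPM, and close to vehicle replicate 1 in the second, at 7.35 against 8.35 CPM. The difference in all libraries was 0.83 ± 0.482, adjusted p = 0.139. An analysis chosen after seeing the data left out both libraries and gave a log2 fold change of 0.82 ± 0.0628 (SE, adjusted p = 2.07e-07, edgeR). Leaving out TTX replicate 4 alone gave 1.10 (adjusted p = 0.0176). Ifit1, an RNA-binding effector that was too low to test, had 0 counts in the same 2 libraries and 5, 26, 3 and 13 counts in the other TTX libraries, against 5, 10, 8 and 8 counts in the other vehicle libraries. Without both libraries 25 members were called higher and 31 lower, the same counts as with them but not the same genes. Mx1, RT1-CE3 and RT1-T24-4 gained a call (adjusted p = 2.07e-07, 0.0221 and 0.00276, edgeR). Oasl, RT1-M5 and RT1-S2 lost theirs (adjusted p = 0.0702, 0.082 and 0.0501, edgeR).

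**Figure D3:**
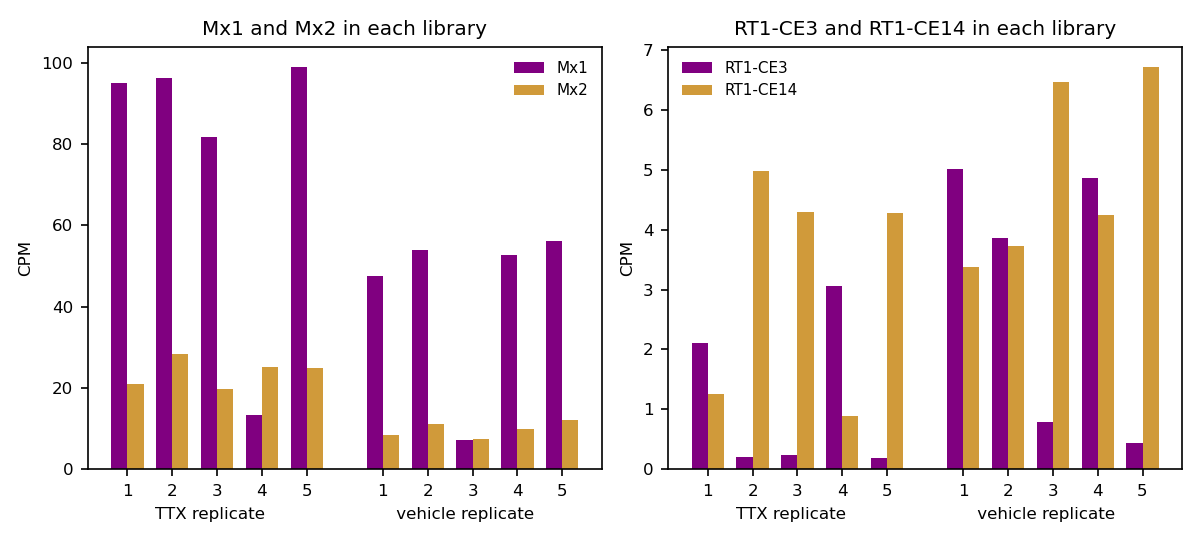
CPM (y axis, from 0) in each library, TTX replicates 1 to 5 on the left and vehicle replicates 1 to 5 on the right of each panel, for Mx1 and Mx2 and for RT1-CE3 and RT1-CE14. Mx1 drops to 13.4 in TTX replicate 4 and 7.13 in vehicle replicate 3, where Mx2 is at 25.0 and 7.35, and RT1-CE3 is under 1 in libraries where RT1-CE14 is high.

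Guanylate-binding proteins, interferon-induced GTPases that attack the vacuoles of intracellular pathogens, were all higher. Gbp2 measured 38.5, 42.8, 38.0, 35.7 and 42.6 CPM in TTX libraries, against 20.2, 24.3, 18.9, 25.4 and 23.3 CPM in vehicle libraries. Gbp5 measured 7.94, 7.49, 6.50, 6.69 and 6.86 CPM in TTX libraries, against 4.71, 5.25, 4.78, 4.83 and 5.05 CPM in vehicle libraries. Gbp4 measured 0.787, 0.893, 1.27, 0.622 and 0.968 CPM in TTX libraries, against 0.230, 0.327, 0.440, 0.444 and 0.458 CPM in vehicle libraries. The lowest TTX library exceeded the highest vehicle library for all 3. The fold was 1.76 for Gbp2 (0.82 ± 0.0782, adjusted p = 2.98e-07), 1.44 for Gbp5 (0.53 ± 0.0766, adjusted p = 2.31e-05) and 2.36 for Gbp4 (1.24 ± 0.250, adjusted p = 0.000477). Tested against a change of 1.5-fold instead of no change, 6 of 78 tested members were higher, against 5.35% of all genes. They were Mx2, Oasl2, Rsad2, Gbp2, Gbp4 and RT1-Da. In the same test 8 of the 78 were lower, against 8.44% of all genes (13.8% in either direction). The lower ones were Ifitm3, RT1-DOb and the 6 genes RT1-CE1, RT1-CE6, RT1-CE7, RT1-CE12, RT1-CE13 and RT1-CE15. RT1-CE12 and RT1-CE13 had at most 11 and 4 counts in any TTX library and passed the low-count filter mainly through the vehicle group. RT1-Da, with 4 to 9 counts in vehicle libraries, passed it through the TTX group, so these counts are no test of the members.

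Of the 6 genes of class I assembly and peptide supply on the list none was called higher, 3 were lower and 3 did not pass. Of 17 tested presentation genes that are not on the list, 12 were higher and 1 lower, Psmb10, Psme1, Psme2, Tapbpl and Calr being among the higher ones. The difference between these sets of genes was not tested, and of all genes tested 35.4% were higher and 35.0% lower. Tap1, a subunit of the peptide transporter, measured 18.7, 21.3, 19.8, 21.3 and 19.0 CPM in TTX libraries, against 25.1, 23.0, 27.8, 25.4 and 25.9 CPM in vehicle libraries. Tap2, its partner, measured 29.8, 29.0, 30.8, 31.9 and 29.6 CPM in TTX libraries, against 32.9, 32.2, 33.3, 32.6 and 32.9 CPM in vehicle libraries. Tapbp, which encodes tapasin, the bridge from the transporter to empty class I molecules, measured 22.5, 23.0, 25.0, 22.5 and 23.2 CPM in TTX libraries, against 27.2, 27.5, 30.4, 28.1 and 25.7 CPM in vehicle libraries. In each case the highest TTX library was below the lowest vehicle library. The differences were modest (-0.35 ± 0.0554, adjusted p = 6.04e-05 for Tap1; -0.12 ± 0.0352, adjusted p = 0.00841 for Tap2; -0.26 ± 0.0481, adjusted p = 0.000263 for Tapbp; edgeR). The Tap2 call was lost without TTX replicates 1 and 5 together, an analysis chosen after seeing the data (-0.10 ± 0.0437, adjusted p = 0.0593).

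B2m, which encodes beta-2 microglobulin, the invariant chain of class I molecules, was the most abundant member by FPKM, with 442 ± 11.6 in TTX libraries and 419 ± 14.5 in vehicle libraries (SD, n = 5 libraries each). It measured 824, 844, 785, 819.9 and 844 CPM in TTX libraries, against 787, 783, 749, 831 and 793 CPM in vehicle libraries. Vehicle replicate 4 lay among the TTX libraries, and the test was not passed (0.06 ± 0.0292, adjusted p = 0.0678). The inducible proteasome subunits Psmb8 and Psmb9 did not pass either. Psmb8 averaged 10.9 ± 0.369 CPM in TTX libraries and 10.8 ± 0.657 CPM in vehicle libraries (0.02 ± 0.0566, adjusted p = 0.789), and Psmb9 12.7 ± 1.47 CPM in TTX libraries and 12.1 ± 0.680 CPM in vehicle libraries (0.08 ± 0.0779, adjusted p = 0.402). Without TTX replicate 1 Psmb9 was called higher (0.14, adjusted p = 0.049), and B2m without TTX replicate 3 (0.08, adjusted p = 0.0333) or vehicle replicate 4 (0.08, adjusted p = 0.018).

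All 3 RT1-A genes, which encode the classical class I chains that present peptides to cytotoxic T cells, were lower. RT1-A2 measured 62.4, 63.7, 62.2, 62.6 and 58.7 CPM in TTX libraries, against 70.1, 72.0, 70.3, 74.9 and 76.3 CPM in vehicle libraries. RT1-A1 measured 20.0, 20.2, 22.2, 22.6 and 18.2 CPM in TTX libraries, against 26.6, 25.0, 24.4, 27.5 and 23.9 CPM in vehicle libraries. RT1-A3 measured 2.21, 2.08, 2.45, 1.87 and 1.65 CPM in TTX libraries, against 3.04, 2.93, 3.02, 2.96 and 2.85 CPM in vehicle libraries. Every TTX library lay below every vehicle library for each gene. The log2 fold changes were -0.23 ± 0.0330, adjusted p = 1.81e-05 for RT1-A2, -0.30 ± 0.0603, adjusted p = 0.000409 for RT1-A1 and -0.52 ± 0.118, adjusted p = 0.00111 for RT1-A3 (edgeR). Reads can be split among RT1 class I genes of similar sequence, which was not tested. Values of single genes are therefore uncertain, and sums over them are given too. Summed over the 3 genes, the level was 84.6 ± 3.52 CPM in TTX libraries and 101 ± 2.99 CPM in vehicle libraries (SD, n = 5 libraries each). Fewer cells of a type and less RNA per cell cannot be told apart in these bulk samples.

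**Figure D4:**
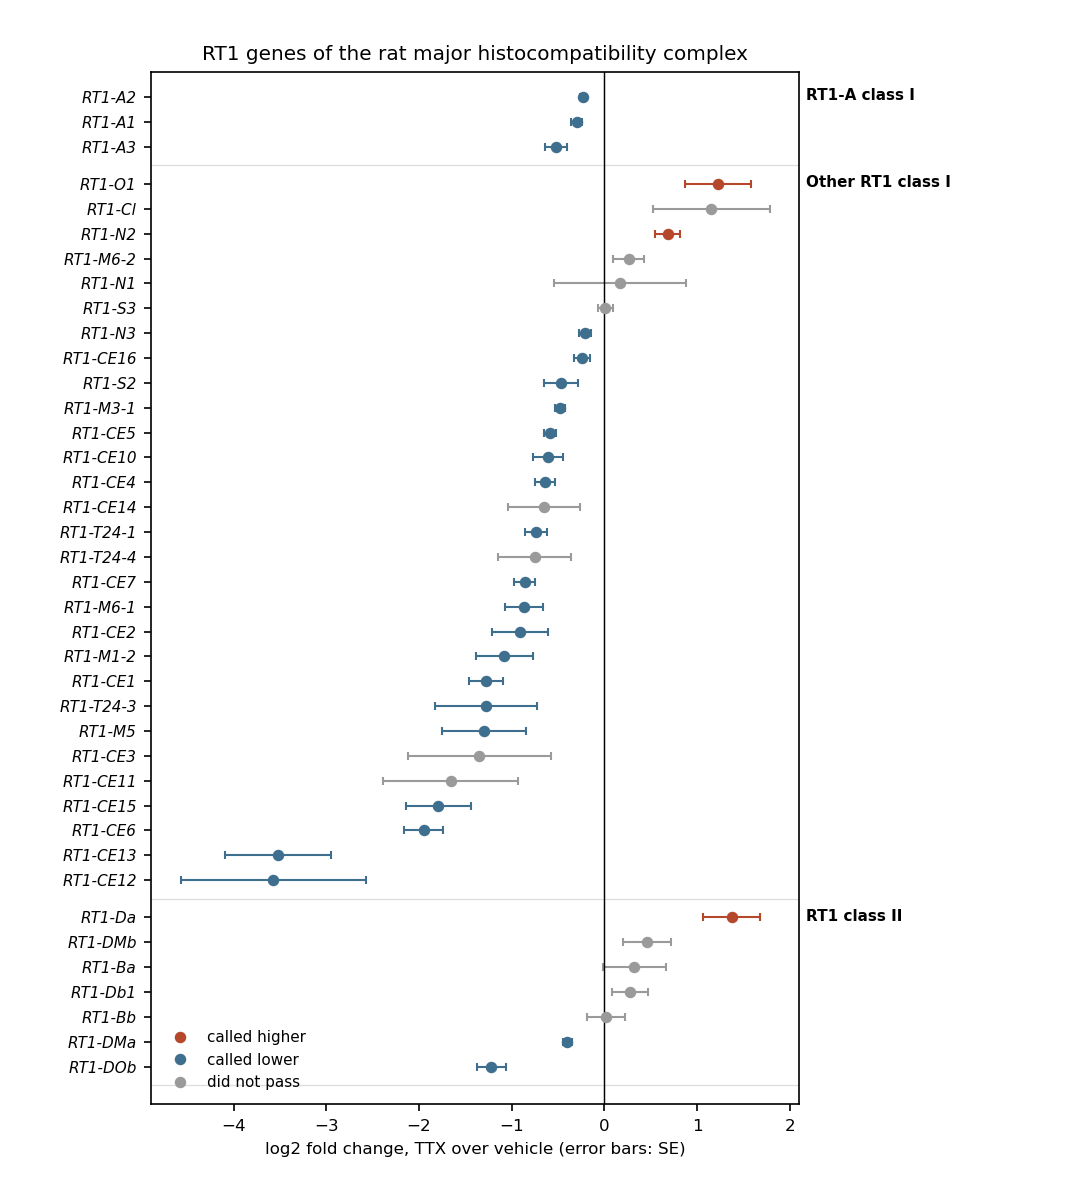
Log2 fold change of TTX over vehicle (x axis) for the 39 tested RT1 genes by class, with bars for the SE. Of 32 class I genes, 22 called lower lie left of 0 and 2 called higher, RT1-O1 and RT1-N2, right of it, whereas class II genes lie on both sides.

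Of the 14 RT1-CE genes, class I genes named after the C/E region of the rat complex, 11 were called lower and 3 did not pass. The share called lower over all genes tested was 35.0%. Summed over all 14, the level was 51.3, 48.7, 51.5, 47.6 and 46.2 CPM in TTX libraries, against 84.7, 80.3, 84.1, 86.2 and 75.8 CPM in vehicle libraries. The sums did not overlap and were 1.68-fold lower with TTX. RT1-CE5 measured 16.0, 16.9, 18.6, 16.4 and 16.4 CPM in TTX libraries, against 26.4, 23.1, 28.3, 26.8 and 22.3 CPM in vehicle libraries. RT1-CE7 measured 18.2, 12.1, 11.7, 10.8 and 12 CPM in TTX libraries, against 25.0, 22.9, 21.9, 24.6 and 23.3 CPM in vehicle libraries. RT1-CE6 measured 0.423, 0.400, 0.487, 0.471 and 0.204 CPM in TTX libraries, against 1.72, 1.65, 1.57, 1.55 and 1.30 CPM in vehicle libraries. All 3 had groups apart, although TTX replicate 1 was high for RT1-CE7. The log2 fold changes were -0.59 ± 0.0668, adjusted p = 1.94e-06 for RT1-CE5, -0.86 ± 0.113, adjusted p = 9.17e-06 for RT1-CE7 and -1.95 ± 0.208, adjusted p = 9.41e-07 for RT1-CE6 (edgeR).

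A further 4 RT1-CE genes were lower, 2 of them with groups apart. RT1-CE4 measured 2.76, 2.42, 2.93, 2.96 and 2.29 CPM in TTX libraries, against 4.67, 4.13, 4.46, 3.91 and 3.73 CPM in vehicle libraries. RT1-CE1 measured 1.62, 1.86, 2.69, 1.92 and 1.43 CPM in TTX libraries, against 4.29, 5.63, 4.99, 5.27 and 3.06 CPM in vehicle libraries. The groups were apart for both (-0.64 ± 0.107, adjusted p = 8.63e-05 for RT1-CE4; -1.28 ± 0.186, adjusted p = 2.33e-05 for RT1-CE1; edgeR). RT1-CE10 measured 1.12, 1.34, 1.83, 1.40 and 1.99 CPM in TTX libraries, against 1.90, 2.32, 2.71, 2.41 and 2.33 CPM in vehicle libraries. RT1-CE16 measured 6.80, 7.24, 7.72, 8.36 and 6.06 CPM in TTX libraries, against 8.35, 7.76, 8.99, 8.29 and 9.30 CPM in vehicle libraries. These 2 overlapped between the groups (-0.61 ± 0.166, adjusted p = 0.00432 for RT1-CE10; -0.24 ± 0.0868, adjusted p = 0.0236 for RT1-CE16). The RT1-CE16 call was lost without TTX replicate 1 (adjusted p = 0.0547), TTX replicate 5 (0.0584) or vehicle replicate 5 (0.0619).

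The remaining 4 RT1-CE genes called lower had few counts in some libraries. RT1-CE15 measured 0.764, 0.616, 0.473, 0.606 and 0.493 CPM in TTX libraries, against 1.40, 4.57, 1.64, 1.23 and 1.44 CPM in vehicle libraries. RT1-CE2 measured 0.223, 0.0770, 0.230, 0.202 and 0.238 CPM in TTX libraries, against 0.402, 0.344, 0.396, 0.383 and 0.314 CPM in vehicle libraries. RT1-CE13 measured 0, 0, 0.0541, 0.0673 and 0.0510 CPM in TTX libraries, against 0.402, 0.344, 0.205, 0.598 and 0.419 CPM in vehicle libraries. All 3 had groups apart, with vehicle replicate 2 far above the rest for RT1-CE15. The log2 fold changes were -1.79 ± 0.351, adjusted p = 0.000377, -0.91 ± 0.299, adjusted p = 0.0145 and -3.52 ± 0.570, adjusted p = 6.44e-05 in that order (edgeR). RT1-CE12 had 0, 0, 0, 0 and 11 counts in TTX libraries, against 26, 0, 49, 38 and 19 counts in vehicle libraries. Only TTX replicate 5 had reads of it in its group, and the call (-3.57 ± 1.00, adjusted p = 0.00556) was lost in DESeq2 (adjusted p = 0.122). Without TTX replicate 5 no TTX library had a count and the adjusted p was 0.00147.

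RT1-CE3, RT1-CE11 and RT1-CE14 did not pass and varied widely between libraries of a group. RT1-CE3 measured 2.1, 0.200, 0.230, 3.06 and 0.187 CPM in TTX libraries, against 5.02, 3.86, 0.792, 4.87 and 0.432 CPM in vehicle libraries. RT1-CE14 measured 1.25, 4.99, 4.30, 0.892 and 4.28 CPM in TTX libraries, against 3.37, 3.73, 6.47, 4.24 and 6.72 CPM in vehicle libraries. In TTX replicates 2, 3 and 5 and in vehicle replicates 3 and 5, where RT1-CE3 was under 1 CPM, RT1-CE14 had the highest values of each group. Summed over the 3 genes, the level was 3.35, 5.67, 4.80, 4.41 and 4.77 CPM in TTX libraries, against 9.59, 7.60, 8.20, 10.7 and 8.11 CPM in vehicle libraries. The sums were apart, whereas none of the 3 genes was. RT1-CE3 was called lower without TTX replicate 4 (-2.05, adjusted p = 0.0369) and RT1-CE11 without vehicle replicate 2 (-1.99, adjusted p = 0.00396).

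Of the 15 tested class I genes outside RT1-A and RT1-CE, 8 were called lower, 2 higher and 5 did not pass, against 35.0% lower and 35.4% higher of all genes. Of the 8, 3 lost their call when a single library was left out. RT1-M3-1, whose mouse counterpart presents formylated peptides of bacteria and mitochondria, measured 23.1, 23.2, 23.5, 21.2 and 20.1 CPM in TTX libraries, against 32.7, 30.5, 29.2, 34.0 and 28.8 CPM in vehicle libraries. RT1-N3 measured 10.4, 11.2, 11.4, 10.1 and 11.2 CPM in TTX libraries, against 13.9, 11.5, 12.8, 12 and 12.8 CPM in vehicle libraries. RT1-T24-1 measured 1.48, 1.68, 1.73, 2.00 and 1.97 CPM in TTX libraries, against 3.04, 3.04, 2.80, 2.71 and 3.11 CPM in vehicle libraries. All 3 had groups apart (-0.48 ± 0.0577, adjusted p = 3.41e-06 for RT1-M3-1; -0.21 ± 0.0613, adjusted p = 0.00623 for RT1-N3; -0.74 ± 0.116, adjusted p = 5.34e-05 for RT1-T24-1; edgeR). RT1-M6-1 measured 1.59, 1.59, 0.730, 1.60 and 1.68 CPM in TTX libraries, against 3.25, 2.59, 2.80, 2.34 and 2.11 CPM in vehicle libraries. RT1-M1-2 measured 0.270, 0.185, 0.243, 0.219 and 0.408 CPM in TTX libraries, against 0.708, 0.655, 0.337, 0.736 and 0.379 CPM in vehicle libraries. The groups were apart for RT1-M6-1 (-0.87 ± 0.203, adjusted p = 0.00153) and overlapped for RT1-M1-2 (-1.08 ± 0.309, adjusted p = 0.00645).

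The 3 genes whose calls were lost in this way were RT1-S2, RT1-M5 and RT1-T24-3. RT1-S2 measured 0.987, 1.17, 0.852, 1.23 and 0.731 CPM in TTX libraries, against 1.21, 1.74, 1.53, 1.24 and 1.15 CPM in vehicle libraries. RT1-M5 measured 0.0588, 0.0616, 0.162, 0.0673 and 0.0510 CPM in TTX libraries, against 0.0766, 0.196, 0.249, 0.169 and 0.301 CPM in vehicle libraries. RT1-T24-3 measured 0.106, 0, 0.189, 0.488 and 0.391 CPM in TTX libraries, against 0.459, 0.557, 0.279, 0.736 and 0.720 CPM in vehicle libraries. All 3 overlapped between the groups, with log2 fold changes of -0.47 ± 0.184, adjusted p = 0.0357, -1.30 ± 0.457, adjusted p = 0.0202 and -1.28 ± 0.548, adjusted p = 0.0499 in that order (edgeR). RT1-S2 lost its call without TTX replicate 1, 3 or 5 or vehicle replicate 2 or 3 (adjusted p = 0.0587, 0.0781, 0.0839, 0.0991 and 0.0748). RT1-M5 lost it without vehicle replicate 5 (adjusted p = 0.0645). RT1-T24-3 lost it without TTX replicate 1, 2 or 3 or vehicle replicate 1, 2, 4 or 5 (adjusted p from 0.0621 to 0.113).

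Against this direction RT1-N2 and RT1-O1 were higher. RT1-N2 averaged 6.59 ± 0.678 CPM in TTX libraries and 4.11 ± 0.827 CPM in vehicle libraries and RT1-O1 0.205 ± 0.0256 CPM in TTX libraries and 0.0886 ± 0.0325 CPM in vehicle libraries, and the groups were apart for both (0.68 ± 0.132, adjusted p = 0.000329 for RT1-N2; 1.22 ± 0.357, adjusted p = 0.00732 for RT1-O1; edgeR). RT1-S3, at 10.8 ± 1.36 CPM in TTX libraries and 10.7 ± 0.664 CPM in vehicle libraries, did not pass (0.01 ± 0.0826, adjusted p = 0.93). RT1-M6-2, RT1-N1, RT1-Cl and RT1-T24-4 did not pass either. RT1-T24-4 measured 2.34, 2.59, 2.03, 7.89 and 2.41 CPM in TTX libraries, against 6.36, 7.02, 4.84, 2.01 and 8.48 CPM in vehicle libraries, so that TTX replicate 4 lay within the range of the vehicle group and vehicle replicate 4 below every TTX library. It was called lower without TTX replicate 4 (-1.30, adjusted p = 0.00185) or without vehicle replicate 4 (-0.97, adjusted p = 0.0256), and RT1-Cl was called higher without TTX replicate 1 (1.45, adjusted p = 0.0326). Over all 35 class I genes with a row, the summed level was 195 ± 6.67 CPM in TTX libraries and 258 ± 5.30 CPM in vehicle libraries (SD, n = 5 libraries each), and the libraries of the groups did not overlap.

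Class II genes showed no common direction, with 1 of 7 tested higher, 2 lower and 4 not passed. Over all genes tested 35.4% were higher and 35.0% lower. RT1-DMa, a chain of the DM molecule that loads peptides on class II, measured 30.6, 33.5, 35.6, 34.2 and 36.8 CPM in TTX libraries, against 47.7, 44.3, 43.8, 46.6 and 42.5 CPM in vehicle libraries. RT1-DOb, a chain of the DO molecule that restrains DM, measured 0.858, 0.739, 1.14, 1.16 and 0.951 CPM in TTX libraries, against 1.86, 2.59, 2.42, 2.25 and 2.17 CPM in vehicle libraries. Both had groups apart and were lower (-0.40 ± 0.0497, adjusted p = 5.06e-06 for RT1-DMa; -1.22 ± 0.156, adjusted p = 6.37e-06 for RT1-DOb; edgeR). RT1-Da, a chain of a classical class II molecule, was higher with 17 to 26 counts in TTX libraries and 4 to 9 in vehicle libraries (1.37 ± 0.303, adjusted p = 0.000972). RT1-Ba, RT1-Bb and RT1-Db1, chains of the classical molecules, and RT1-DMb did not pass (adjusted p = 0.421, 0.939, 0.211 and 0.132). RT1-DMb averaged 6.89 ± 2.75 CPM in TTX libraries and 4.99 ± 1.32 CPM in vehicle libraries and was called higher without TTX replicate 1 (0.66, adjusted p = 0.00433) or vehicle replicate 2 (0.63, adjusted p = 0.0496). Cd74, the invariant chain that escorts class II molecules, was not on the list and averaged 0.185 ± 0.0667 CPM in TTX libraries and 0.195 ± 0.0748 CPM in vehicle libraries (-0.09 ± 0.379, adjusted p = 0.841).

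Other genes of the pathway, from lists written with general knowledge of it, moved in both directions. Of 114 genes 85 have a row and 81 were tested. Among these 81, 34 were higher, 18 lower and 29 did not pass, with a median log2 fold change of 0.12. The share over all genes tested was 35.4% higher and 35.0% lower, and it also stands beside the counts that follow. The 12 interferon and related cytokine genes of these lists were not analysed here. Among 12 receptor, kinase and transcription factor genes, 3 were higher and 5 lower. Jak2, a kinase of the interferon gamma receptor, averaged 51.5 ± 2.96 CPM in TTX libraries and 94.4 ± 4.14 CPM in vehicle libraries (-0.87 ± 0.0421, adjusted p = 1.6e-10). Ifngr2, the signalling chain of that receptor, averaged 52.7 ± 0.739 CPM in TTX libraries and 63.9 ± 2.97 CPM in vehicle libraries (-0.28 ± 0.0339, adjusted p = 3.93e-06). Both were lower, whereas Ifngr1 was higher. Among 10 feedback genes 4 were higher and 4 lower. Of these the phosphatase gene Ptpn1 was lower (-0.29 ± 0.0328, adjusted p = 2.14e-06), the phosphatase gene Ptpn11 higher (0.16 ± 0.0221, adjusted p = 1.13e-05) and Cish, a SOCS family inhibitor, lower (-0.68 ± 0.107, adjusted p = 4.84e-05).

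Sensing genes outside the list counted 4 higher and 2 lower of 13 tested, against 35.4% higher and 35.0% lower of all genes. Tbk1, the kinase that activates IRF3, was lower (-0.30 ± 0.0304, adjusted p = 4.79e-07, edgeR), Nlrx1, a mitochondrial member of the NOD-like family, higher (0.34 ± 0.0385, adjusted p = 1.57e-06), and the adaptor gene Myd88 higher (0.42 ± 0.0580, adjusted p = 1.26e-05). Effectors outside the list counted 11 higher and 6 lower of 29. Znfx1, a helicase-domain protein that senses viral RNA, averaged 36.9 ± 0.890 CPM in TTX libraries and 53.8 ± 0.762 CPM in vehicle libraries (-0.55 ± 0.0300, adjusted p = 6.87e-10). Cmpk2, which lies in the genome beside Rsad2 in mammals, averaged 27.3 ± 1.47 CPM in TTX libraries and 18.4 ± 1.14 CPM in vehicle libraries (0.57 ± 0.0516, adjusted p = 1.8e-07). Znfx1 was lower and Cmpk2 was higher.

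Presentation genes outside the list counted 12 higher, 1 lower and 4 not passed of 17, against 35.4% higher and 35.0% lower of all genes. Psmb10, the third inducible proteasome subunit, measured 40.0, 41.7, 38.3, 42.0 and 41.1 CPM in TTX libraries, against 25.2, 25.0, 25.5, 24.2 and 24.2 CPM in vehicle libraries. Its groups were apart (0.71 ± 0.0366, adjusted p = 3.28e-10), unlike those of Psmb8 and Psmb9. Tapbpl, a tapasin-related peptide editor, averaged 38.9 ± 1.43 CPM in TTX libraries and 26.3 ± 0.313 CPM in vehicle libraries (0.56 ± 0.0349, adjusted p = 2.51e-09). Calr, which encodes calreticulin, a chaperone of class I loading and of many other glycoproteins, averaged 919.6 ± 25.7 CPM in TTX libraries and 742 ± 19.9 CPM in vehicle libraries (0.31 ± 0.0260, adjusted p = 7.15e-08). Both were higher, whereas Tapbp itself was lower. The proteasome activator genes Psme1 and Psme2 were higher too (0.27 ± 0.0349, adjusted p = 8.37e-06 for Psme1; 0.43 ± 0.0451, adjusted p = 8.05e-07 for Psme2), and Ciita, the master regulator of class II genes, had 18 to 34 counts in TTX libraries and 2 to 11 in vehicle libraries.

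Microglia express many of these genes, and their markers varied between libraries. Summed over 18 markers, the level was 181, 271, 289, 273 and 425 FPKM in TTX libraries, against 275, 261, 247, 248 and 202 FPKM in vehicle libraries. The TTX group held both the lowest and the highest sum. Of 17 tested markers P2ry12, Itgam and Ptprc were higher, 1 was lower and 13 did not pass. Over all genes tested 35.4% were higher and 35.0% lower. Without TTX replicate 1 the number higher was 12, without TTX replicate 5 it was 1 and without both, an analysis chosen after seeing the data, it was 10. The median log2 deviation of the markers from their group mean was -0.74 in TTX replicate 1 and 0.69 in TTX replicate 5. For the 26 tested effectors, guanylate-binding, modifier and sensing genes it was -0.11 and 0.07 in those libraries. It was -0.05 and -0.07 for the 32 RT1 class I genes and -0.10 and 0.11 for the 7 tested class II genes. Single members differed, as RT1-DMb was lowest of its group in TTX replicate 1 (2.81 CPM) and highest in TTX replicate 5 (10.6 CPM). RT1-Bb went the other way, with 1.42 CPM in TTX replicate 1 and 0.781 CPM in TTX replicate 5. Without both libraries 26 members were called higher and 26 lower.

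**Figure D5:**
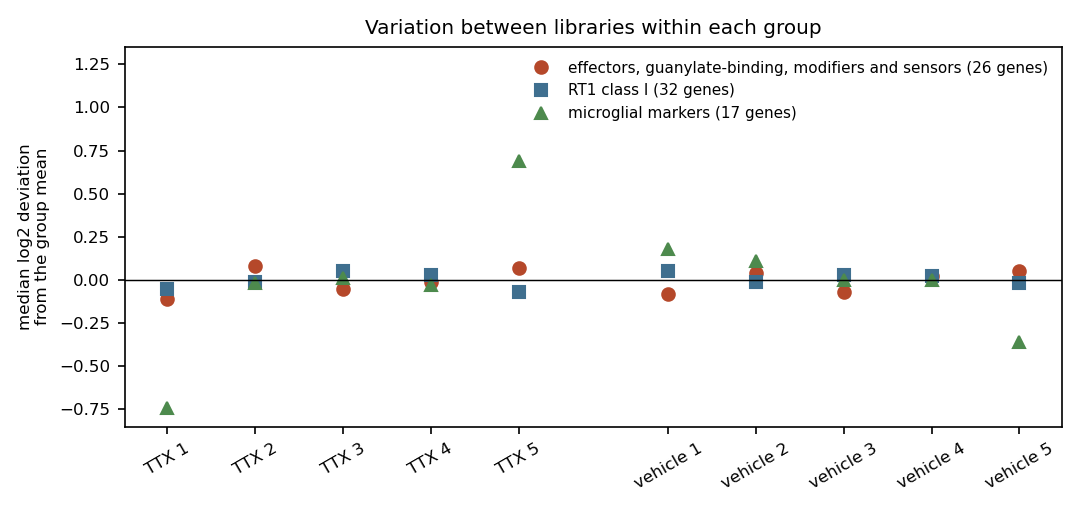
Median log2 deviation from the group mean (y axis) in each TTX and vehicle library for 26 interferon-induced genes, 32 RT1 class I genes and 17 microglial markers. The markers spread from -0.74 to 0.69 within the TTX group, while the interferon-induced genes stay between -0.11 and 0.08 and the class I genes between -0.07 and 0.05.

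Markers of other cell types differed too, where 35.4% of all genes tested were higher and 35.0% lower. Macrophage and lymphocyte markers, with 8 of 15 having a row, summed to 34.0 to 94.8 FPKM in TTX libraries and 36.1 to 51.9 FPKM in vehicle libraries, with Mrc1, Lyve1 and Cd163 called higher and 1 lower of 7 tested. The T cell markers Cd3d, Cd3e, Cd3g and Cd2 were not analysed here. Endothelial, mural and fibroblast markers summed to 12.6 to 14.5 FPKM in TTX libraries and 25.3 to 29.4 FPKM in vehicle libraries, with 6 lower and 1 higher of 10 tested. Astrocyte markers summed to 6252 to 6762 FPKM in TTX libraries and 3993 to 4572 FPKM in vehicle libraries, with 6 higher and 2 lower of 10. Oligodendrocyte lineage markers summed to 779 to 842 FPKM in TTX libraries and 461 to 577 FPKM in vehicle libraries, with 7 higher and 1 lower of 10. The sums of both lists did not overlap between the groups, nor did those of the endothelial, mural and fibroblast list or of the neuron list. Neuron markers summed to 2558 to 2671 FPKM in TTX libraries and 2335 to 2488 FPKM in vehicle libraries, with 4 higher and 2 lower of 10. The 2 lower ones were Gad1 and Gad2, which encode the enzymes that make GABA, and they were 2.02-fold and 1.91-fold lower with TTX (-1.02 ± 0.0283, adjusted p = 5e-13 for Gad1; -0.93 ± 0.0262, adjusted p = 5.5e-13 for Gad2; edgeR). The part of these cell types in the values of the members was not tested.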

How the data were processed

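Total RNA with an integrity number above 9 was sequenced from 5 TTX and 5 vehicle libraries, per the labels' protocols. Upstream tools were HISAT2 2.1.0, StringTie and DESeq2 with the rat build rn6, per the submitters' processing notes. The counting tool and the use of strand are not given in the sources used here. The authors deposited raw counts and FPKM values per gene and library, and their own log2 fold changes with adjusted p-values, per the file headers. FPKM is blank in the deposited table for 272 genes, Tap2, RT1-DMa and RT1-DMb among them. Repeated lines of 241 gene names were collapsed, which left 14354 genes.

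Counts were tested with edgeR 4.0.16 in R 4.3.3 (TMM scaling; a filterByExpr threshold of 10 counts and 15 in total; a two-sided quasi-likelihood test; Benjamini-Hochberg over 13088 genes at 0.05). The SE was derived by dividing the size of each log2 fold change by the root of its F statistic. CPM uses TMM library sizes. No libraries were merged, because every replicate pair differed by more than sampling noise (chi-square of 9.74 to 22.4 for each gene). The pipeline was run on simulated counts of 12975 genes, with 50 changed at each fold and the same spread for every gene. It recovered 58% of changes of 1.2-fold and 98% of 1.5-fold, and 12 of its 188 calls fell on unchanged genes. Far more genes were called in the real data, and some members varied more, so these rates may not hold for them.

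Members and lists were chosen with earlier results of these data known. Given in every library are the 4 members of each role with the smallest p, the RT1 genes being 1 role, with every member called lower and the 3 of highest mean FPKM, and the means of the 3 genes with the smallest p in each pathway list. Other members named with such values, such as Mx1, RT1-CE3, RT1-CE14 and RT1-T24-4, were chosen after their values were seen. Some genes that these rules name are not reported here. Alternatives were RLE, library totals and upper quartile scaling, no filter, 1 CPM in 5 libraries, DESeq2 1.42.0, limma-voom (limma 3.58.1), a replicate block, a test against 1.5-fold and each library left out. Depth limits precision for members with few counts.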

Additional observations from a re-analysis of the deposited data

Results flagged for a closer look

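Of 156 groups of 5 libraries checked, 15 held a library whose gap to the nearest other exceeded the critical share of the range, 0.71, and chance gives about 1 in 20. Mx1 was low in TTX replicate 4 (13.4 CPM, next 81.7) and in vehicle replicate 3 (7.13 CPM, next 47.4), the libraries in which Ifit1 had 0 counts. Sp100 was high in TTX replicate 4 (0.538 CPM), as was RT1-T24-4 (7.89 CPM, next 2.59). In TTX replicate 3 Tapbp (25.0 CPM) and RT1-M5 (0.162 CPM) were high and RT1-M6-1 (0.730 CPM, next 1.59) was low. RT1-CE7 was high in TTX replicate 1 (18.2 CPM, next 12.1), RT1-CE12 in TTX replicate 5 (0.187 CPM, the others at 0), and RT1-CE2 was low in TTX replicate 2 (0.0770 CPM). In vehicle replicate 2 RT1-CE15 (4.57 CPM, next 1.64) and RT1-DMb (7.27 CPM, next 4.81) were high. In vehicle replicate 4 Irf7 was high (8.49 CPM) and Ddx58 low (14.3 CPM, next 16.1), and Oas1a was high in vehicle replicate 5 (1.11 CPM).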

How the results depend on the processing

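Of the 56 called members, 49 kept their call, 24 higher and 25 lower, under each of 20 settings other than the test against 1.5-fold, among the settings that tested them. Leaving out each library in turn gave 24 to 28 members higher and 28 to 33 lower, 31 to 36 other pathway genes higher and 16 to 19 lower, 4405 to 4548 genes higher and 4462 to 4555 lower, and 1 to 12 microglial markers higher. Without TTX replicates 1 and 5 the microglial count was 10, and it was 1 in limma-voom and 1 with the replicate block. The test against 1.5-fold left 700 genes higher and 1104 lower, 6 members higher and 8 lower, 4 other pathway genes higher and 3 lower, and 1 microglial marker higher and 0 lower. Other scalings moved the median of all genes by -0.001 to 0.022. With library totals or upper quartile scaling Isg15 (adjusted p = 0.0468 and 0.0446) and B2m (0.0199 and 0.0198) were called higher, Isg15 also in DESeq2 (0.0309). RT1-T24-3 lost its call with library totals (0.0528), upper quartile scaling (0.0536) and no filter (0.0602), and RT1-CE14 was called lower in limma-voom (0.0421).

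The labels do not say whether a replicate number marks a shared culture. Over all genes tested, deviations of the same number correlated at -0.065 to 0.01, which gives no sign of pairing but cannot exclude it. With the replicate block Oasl lost its call (adjusted p = 0.0695), B2m (0.0328), RT1-CE14 (0.0299) and RT1-CE3 (0.0047) gained one, and no TTX library correlated best with its own number.

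Signs turned only in genes that did not pass, and the cause was not tested. Oas1a gave -0.14 in limma-voom and -0.03 with the replicate block, and -0.39 to 0.33 without single libraries. Cxcl10 gave 0.03 with the block, and -0.42 to 0.37 without single libraries. Psmb8 gave -0.01 to 0.05 without single libraries. RT1-Bb gave -0.01 in limma-voom, -0.01 with the block, -0.18 without TTX replicate 4 and vehicle replicate 3 together, and -0.12 to 0.14 without single libraries. RT1-N1 gave -0.02 without TTX replicates 1 and 5 together, and -0.28 to 0.60 without single libraries. RT1-S3 gave -0.01 in limma-voom, and -0.06 to 0.05 without single libraries. Members with few counts are limited by depth.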

Other observations

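By the authors' deposited table, 57 members have an adjusted p under 0.05, 27 higher and 30 lower with TTX. Of the 56 members called here 55 are among them, all in the same direction. Isg15 and Ifit3 are called only in the authors' deposited table, and RT1-CE12 only here. Ifit3, an RNA-binding effector, was not tested here and had 6, 22, 18, 3 and 8 counts in TTX libraries, against 0, 0, 2, 4 and 8 counts in vehicle libraries. RT1-Db2 had 6, 0, 0, 2 and 6 counts in TTX libraries and 0 in every vehicle library.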
